A study of Mus musculus with 16 samples.

Results

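The lysosomal genes examined here are 37 genes, chosen by name, of the 49066 genes in the data. They comprise 34 genes for lysosomal hydrolases, their cofactors and lysosomal membrane proteins, and the 3 transcription factor genes *Tfeb*, *Tfe3* and *Mitf*. They were named by function with no measured value in the rule, and all 37 were found. Expression was measured by bulk RNA sequencing of brown adipose tissue (BAT) from mice on the C57BL6/J background, with 4 WT and 4 KO mice of each sex. KO mice (GDF15 BKO) carried homozygous floxed *Gdf15* alleles and Cre recombinase driven by the *Ucp1* promoter, the Tg(Ucp1-cre)1Evdr transgene. WT mice carried the same floxed alleles without Cre, so loss of *Gdf15* and presence of Cre cannot be told apart. All mice were given a high-fat diet (HFD) with 60% of its calories from fat for 12 weeks and were 18 weeks old. Some mice of the study spent the end of the diet singly housed in metabolic chambers at a thermoneutral temperature, and whether the sequenced mice were among them is not given in the sources used here. *Ucp1* is active in thermogenic adipocytes, so the deletion is directed to those cells of the tissue. The comparisons ask how expression differs between KO and WT mice within each sex, and between genes that macrophages express at high levels and genes that most cells express.

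Lysosomes are acidic organelles in which hydrolases break down proteins, glycans and lipids that arrive by endocytosis, phagocytosis and autophagy. The vacuolar ATPase (V-ATPase) acidifies the lumen, membrane glycoproteins line the organelle, and TFEB, TFE3 and MITF are related transcription factors that bind E-box motifs in the promoters of many lysosomal genes. In adipose tissue lysosomes also take part in lipid breakdown and mitochondrial turnover in adipocytes, while resident macrophages carry an abundant set of lysosomal proteases. Lysosomal transcripts of whole BAT therefore come from several cell types.

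Promoter sequences are shown for 8 members that hold a TFEB-type E-box, and for *Ctss*, which had the largest fold difference among the tested members. They were taken from RefSeq (build GRCm38.p6), in which 32 of the 37 members had a window from 250 bases before to 50 after the start. Each line below is a window of 30 bases, written 5′ to 3′ on the strand of the gene. Capitals mark TCACGTG or its reverse complement in the first 8 lines, where the nearest match upstream of the start was taken (*Ctsa* also has matches just past its start), and the reverse complement of GAGGAAGT, a sequence of the type bound by the macrophage factor PU.1, in the last.
Lamp1: acgtgaccacaTCACGTGcggaacggagcc
Mcoln1: ggcgccccgctCACGTGAccgcggcgcatg
Ctsd: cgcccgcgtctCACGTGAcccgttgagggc
Ctsa: gagcaaactgtCACGTGAtgcagatgctca
Glb1: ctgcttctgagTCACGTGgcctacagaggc
Gaa: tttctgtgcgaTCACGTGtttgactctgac
Naglu: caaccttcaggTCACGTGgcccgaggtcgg
Atp6v1a: tttttttaaatCACGTGAtaggcttaacgt
Ctss: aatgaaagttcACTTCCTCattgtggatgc

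The windows lie at chr8:13159134-13159163 on the plus strand for *Lamp1*, chr8:3500463-3500492 on the plus strand for *Mcoln1* and chr7:142387907-142387936 on the minus strand for *Ctsd*. Those of *Ctsa* (chr2:164833750-164833779), *Glb1* (chr9:114401018-114401047), *Gaa* (chr11:119267811-119267840) and *Naglu* (chr11:101070009-101070038) are on the plus strand. The window of *Atp6v1a* is at chr16:44139372-44139401 on the minus strand, and that of *Ctss* at chr3:95526773-95526802 on the plus strand. The match begins 16 bases before the start in *Lamp1*, 45 in *Mcoln1*, 98 in *Ctsd*, 12 in *Ctsa*, 49 in *Glb1*, 141 in *Gaa*, 74 in *Naglu* and 131 in *Atp6v1a*. The *Ctss* match begins 2 bases before the start and runs 6 bases past it.

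TCACGTG was found on either strand in 9 of the 32 members (28.1%), the 8 shown and *Gla*, against 3.77% of the 32851 promoter windows in the table. The shorter core CACGTG, which every TCACGTG contains, was found in 11 of 32 members (34.4%) against 7.15% of all windows, and the *Lamp1* window holds 4 copies of it. None of the 4 macrophage-rich members with a window (*Ctsc*, *Ctsk*, *Ctss* and *Ctsz*) holds the core. GAGGAAGT was found in 4 members (*Ctsc*, *Ctss*, *Gla* and *Gusb*), or 12.5%, against 3.2% of all windows. A match describes the letters in these windows and does not show binding. In males the 8 tested members with TCACGTG had a median log2 fold change between KO and WT of 0.20, and the 23 without it 0.21. In females the medians were -0.04 with the motif (8 members) and 0.11 without it (22 members).

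The values are TPM, each transcript's length-corrected share of its library on a fixed total, and the number of reads behind them is unknown. The number of transcripts with any signal ranged from 58140 to 65746 among libraries, and mitochondrial transcripts took 34.5 to 59.8% of the TPM. *Gdf15*, the targeted gene, was low throughout. In males its TPM was 0.368, 0.690, 1.55 and 3.81 in WT mice and 0.0915, 0.0801, 0.255 and 0.272 in KO mice, lower in every KO mouse (exact two-sided permutation p = 0.0286, the smallest that 4 mice against 4 can give). In females it was 0.0622, 0.311, 0.170 and 0.290 in WT mice, and in KO mice it was listed at 0 in 3 libraries and at 0.0794 in 1, so the groups overlapped (exact two-sided permutation p = 0.0571). *Ucp1*, the thermogenic uncoupling protein that marks brown adipocytes, ranged from 2353 to 4423 TPM. Muscle markers summed to between 1.85 and 3751 TPM in single libraries and overlapped between KO and WT in both sexes. Markers of lymphocytes had a mean under 1 TPM for all 8 genes of the list in every group. A bulk library cannot tell fewer cells of a type from less RNA per cell.

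The 37 genes together took 0.217 to 0.318% of the TPM of a library. Their levels spanned a wide range (the plot of levels by library). Per length, 5 genes had a mean of at least 100 TPM over the 16 libraries: *Psap* (603 TPM), the precursor of the saposins that present sphingolipids to their hydrolases, *Ctsd* (549 TPM), an aspartic protease, *Ctsb* (427 TPM), a cysteine protease, *Ctsz* (222 TPM), a cysteine carboxypeptidase, and *Lamp1* (218 TPM), a major glycoprotein of the lysosomal membrane. A further 20 genes had means of 10 to 100 TPM, 9 had 1 to 10, and 3 were under 1 TPM. Those 3 were *Mitf* (0.985 TPM), *Atp6v0d2* (0.209 TPM), a V-ATPase subunit of macrophages and osteoclasts, and *Gla* (0.0531 TPM), the alpha-galactosidase, which was listed at 0 in 12 of 16 libraries. In the order of the male WT means, 6 of 36 neighbouring pairs had libraries that did not overlap, so the order is defined between tiers more than between neighbours.

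**Figure D1:**
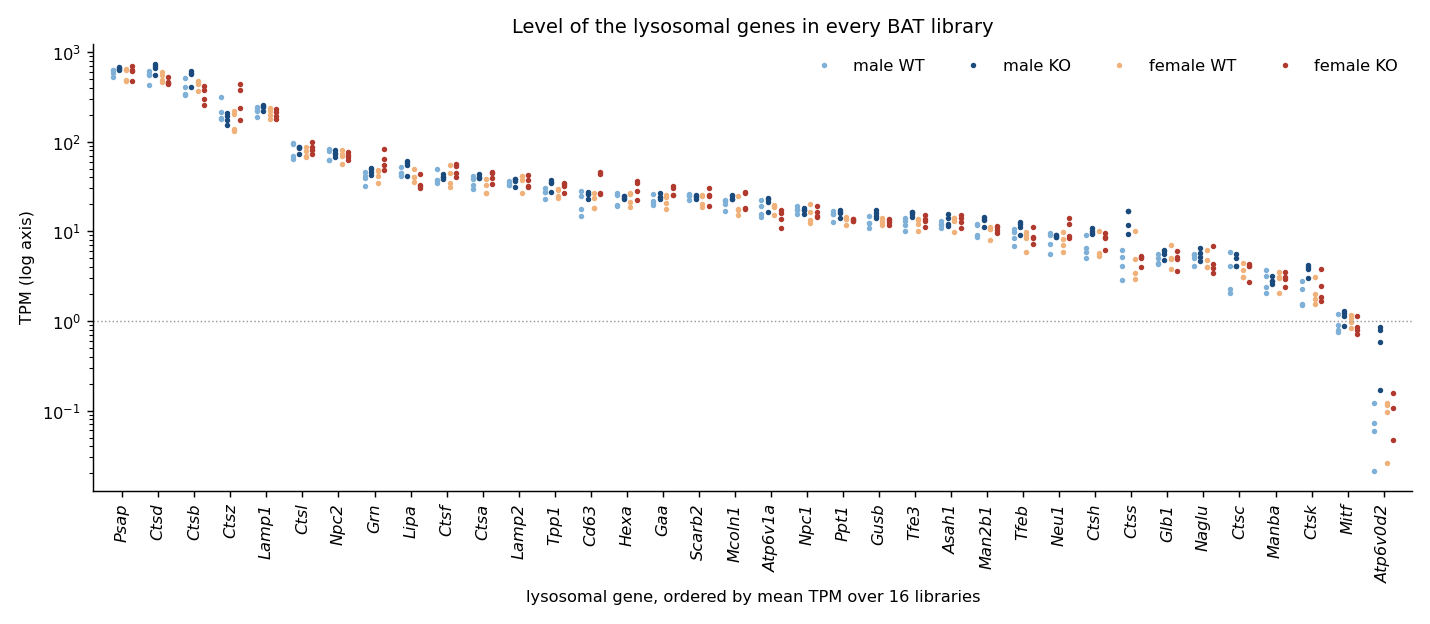
TPM of the lysosomal genes (log axis) in each of 16 libraries, 4 per group, with genes ordered by their mean. *Psap*, *Ctsd* and *Ctsb* lead at means of at least 427 TPM, while *Atp6v0d2* stayed below 1 TPM in every library. The dotted line marks 1 TPM, *Gla* is left out, and 1 *Atp6v0d2* value of 0 (female KO) cannot be drawn on a log axis.

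In males most lysosomal genes were modestly higher in KO than in WT, and the largest differences were in proteases that macrophages express. *Ctss* was 2.77-fold higher (log2 fold change 1.47, SE 0.25, n = 4 and 4), *Ctsk* 1.70-fold and *Ctsh* 1.51-fold on the log2(TPM + 0.5) scale. No member passed the threshold, an adjusted p under 0.05 in limma with Benjamini-Hochberg adjustment over all 12177 genes tested. That threshold was passed by 0.00821% of the genes tested, a single gene. At an unadjusted p under 0.05, 9 of the 35 members tested were higher and 0 were lower, against a background of 17.7% of all genes higher and 1.07% lower. KO and WT values did not overlap, with KO higher, for 6 of the 35 members, against 9.54% of all genes tested.

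The general shift has to be read beside these counts. TPM are shares of a fixed sum, and 79.9% of all genes tested in males had a positive log2 fold change, with a median of 0.16. The members' median was 0.20, with 32 of 35 positive. When libraries were rescaled by median-of-ratios factors the median of all genes became 0.01 and that of the members 0.04, with 20 members positive and 15 negative, and at an unadjusted p under 0.05 4 were higher and 2 lower, against 8.49% and 7.11% of all genes under that scaling. With mitochondrial transcripts left out and the rest rescaled the medians were 0.07 for all genes and 0.10 for the members, with 25 positive and 10 negative. The 27 tested members outside the macrophage-rich and TFEB-family groups had a median of 0.16, the same as all genes, while the 5 tested macrophage-rich members had 0.59. After median-of-ratios scaling these medians were -0.01 and 0.44. The difference between both medians was 0.43, and 0.14 when a broader set of 13 macrophage-rich members was used.

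**Figure D2:**
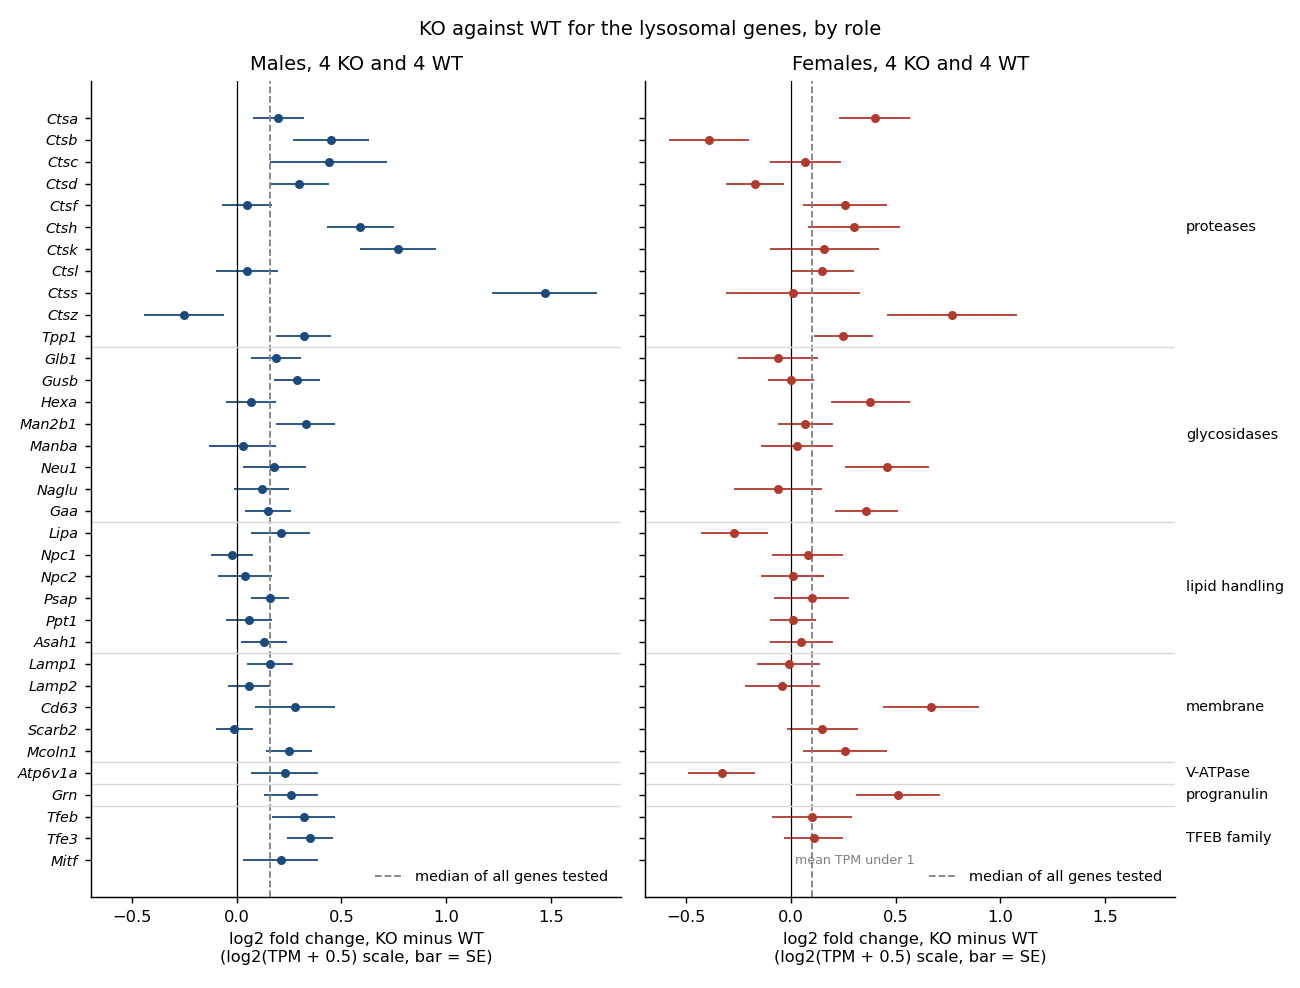
Log2 fold change of each member between KO and WT (points, log2(TPM + 0.5) scale; bars, SE) in males and females, 4 mice per group, grouped by role. The dashed line is the median of all genes tested (0.16 in males and 0.10 in females); *Ctss* reaches 1.47 in males and 0.01 in females, whereas *Ctsz* is at -0.25 and 0.77.

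The macrophage-rich members are *Ctsc*, *Ctsh*, *Ctsk*, *Ctss*, *Ctsz* and *Atp6v0d2*. *Ctss* encodes cathepsin S, the cysteine protease that processes invariant chain in antigen-presenting cells. In males it was at 2.86, 5.21, 4.12 and 6.25 TPM in WT mice and at 9.31, 16.8, 11.7 and 16.7 TPM in KO mice (adjusted p = 0.123 in limma). The KO and WT values did not overlap, and KO mice 2 and 4 were highest (exact two-sided permutation p = 0.0286). Within the prefix 9 of the library names, which the labels do not explain and which holds 3 KO and 2 WT males, the log2 fold change was 1.46, and it was 0.91 for *Ctsk* and 0.69 for *Ctsh*. Of the 35 tested members 33 were positive within that prefix, with a median of 0.16 against 0.14 for all genes.

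*Ctsk* encodes cathepsin K, a collagen-degrading protease of osteoclasts, macrophages and fibroblasts. Its TPM was 1.5, 2.77, 1.55 and 2.28 in male WT mice and 3.0, 3.96, 3.79 and 4.17 in male KO mice (log2 fold change 0.77, SE 0.18, adjusted p = 0.164). *Ctsh*, an aminopeptidase of the cathepsin family, was at 4.99, 9.15, 5.90 and 6.43 TPM in male WT mice and at 9.42, 10.2, 9.5 and 11 TPM in male KO mice (log2 fold change 0.59, SE 0.16, adjusted p = 0.183). For both genes the groups did not overlap, although WT mouse 2 came close to the lowest KO mouse. Of the *Ctsh* mean of 7.89 TPM over 16 libraries, 4.63 came from Ctsh-202, annotated as a target of nonsense-mediated decay, and 1.17 from the coding Ctsh-201. Ctsh-202 was at 3.5, 6.6, 3.2 and 4.8 TPM in WT and 5.8, 5.3, 5.6 and 5.7 TPM in KO males, with overlap. Ctsh-201 did not overlap, at no more than 0.721 TPM in WT and no less than 0.958 TPM in KO males. *Atp6v0d2* was too low to be tested, at 0.0590, 0.0213, 0.0731 and 0.122 TPM in male WT mice and 0.169, 0.793, 0.577 and 0.861 TPM in male KO mice. The KO values lay above the WT values here as well, with KO mouse 1 nearest to them (exact two-sided permutation p = 0.0286).

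The other macrophage-rich members did not share this separation. *Ctsc*, the dipeptidyl peptidase that activates serine proteases of myeloid cells, was at 2.29, 4.08, 2.07 and 5.93 TPM in male WT mice and 4.14, 5.05, 4.08 and 5.62 TPM in male KO mice (log2 fold change 0.44, SE 0.28, adjusted p = 0.400). The WT mice spread over the whole KO range. *Ctsz* was at 181, 314, 213 and 178 TPM in male WT mice and 195, 174, 153 and 211 TPM in male KO mice (log2 fold change -0.25, SE 0.19, adjusted p = 0.488), the only tested macrophage-rich member with a negative value in males.

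**Figure D3:**
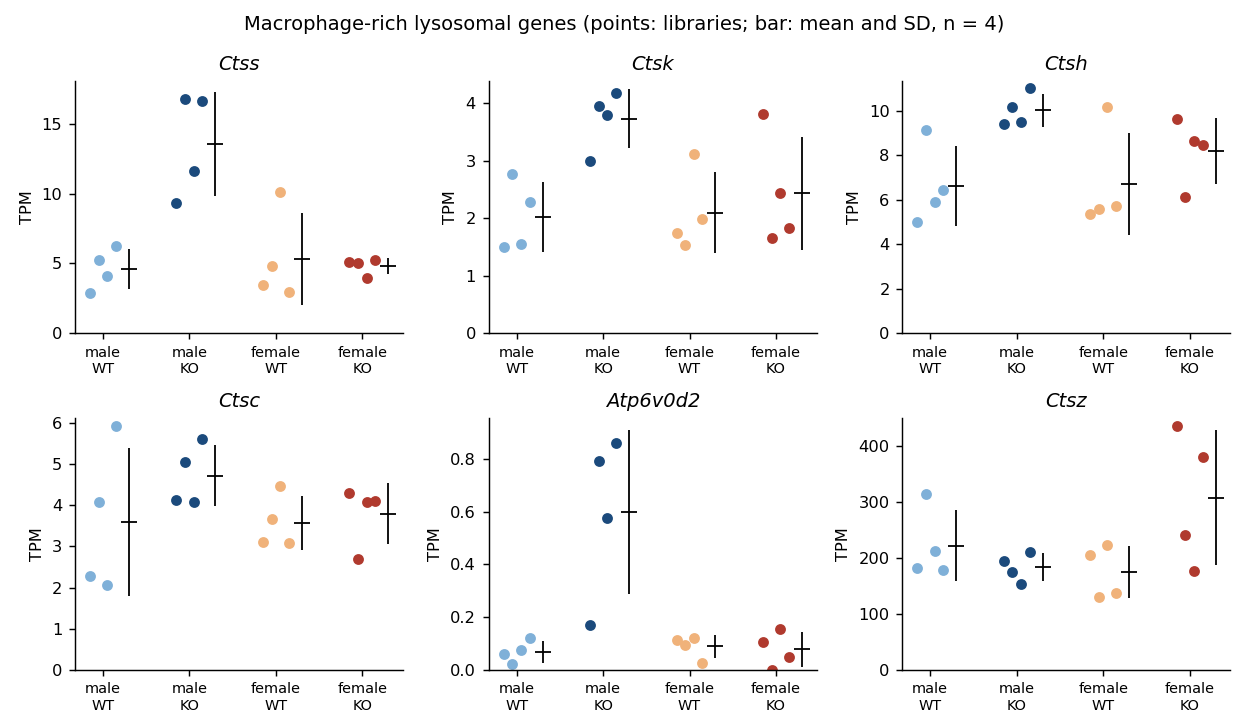
TPM of the 6 macrophage-rich members in each library (points) with the mean and SD of each group (bars, n = 4). *Ctss*, *Ctsk*, *Ctsh* and *Atp6v0d2* are above all male WT values in every male KO library; *Ctsz* is highest in female KO mice 1 (435 TPM) and 4 (380 TPM), and female WT mouse 3 has the highest *Ctss* among females (10.2 TPM).

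Macrophage markers moved with these genes. The summed TPM of 16 markers, which include no member, was 61.1 to 122 in male WT mice and 144 to 211 in male KO mice, without overlap. Of the 14 markers tested, 13 had a positive log2 fold change in males, where 79.9% of all genes did. At an unadjusted p under 0.05, 10 were higher and 0 lower, against 17.7% and 1.07% of all genes. None of the 16 was at 0 throughout a group. *Cd68*, a glycoprotein of macrophage lysosomes, had a log2 fold change of 1.19 (adjusted p = 0.159), *Csf1r*, the receptor for macrophage colony-stimulating factor, 0.90 (adjusted p = 0.163), and *Adgre1*, which encodes F4/80, 0.76 (adjusted p = 0.219). A separate list of 7 markers of lipid-associated macrophages summed to 632 to 761 TPM in WT and 622 to 737 TPM in KO males, with overlap. In male WT mice 4 of the 7 had a mean under 1 TPM and add little to that sum. In male KO mice 1 was under 1 TPM, so some markers reached the minimum for testing only through the KO mice. Of the 5 tested, 4 had a positive log2 fold change. The minimum itself favoured markers that are high in KO mice, so the counts of this list are not set against those of all genes. Fibroblast markers also moved in males, from a sum of 115 to 204 TPM in WT to 246 to 255 TPM in KO mice. Neutrophil markers summed to at most 15.04 TPM and overlapped. The part of these cell types in the members' differences was not tested.

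The likeness of each member to the macrophage marker sum was described by Pearson's r of log2(TPM + 0.5) over the 16 libraries, which include the groups compared above. *Ctss* (r = 0.92), *Ctsh* (0.91), *Ctsk* (0.89) and *Ctsc* (0.81) came first among 35 members. *Tpp1* (0.81), *Man2b1* (0.80) and *Gusb* (0.80), which are outside the macrophage-rich group, came next. Of the 35 members 20 had r above 0.5, so high values were not limited to the macrophage-rich group. These values were not computed for genes outside the list, so how common such values are over all genes is not known. *Ctsz* was near the end at 0.23, with only *Manba* and *Npc1* below it, so its label as macrophage-rich was not borne out by its pattern across these libraries. After subtraction of the group means the values were 0.89 for *Ctss*, 0.85 for *Ctsh*, 0.78 for *Ctsk*, 0.81 for *Ctsc* and 0.59 for *Ctsz*. *Atp6v0d2* had 0.75 and, after that subtraction, 0.42. Members outside the macrophage-rich group also had high values after it, such as *Ppt1* (0.76), *Ctsl* (0.73) and *Npc2* (0.73). Before it, *Ctsb* (0.42), *Lipa* (0.42) and *Grn* (0.35) were in the lower part of the order.

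**Figure D4:**
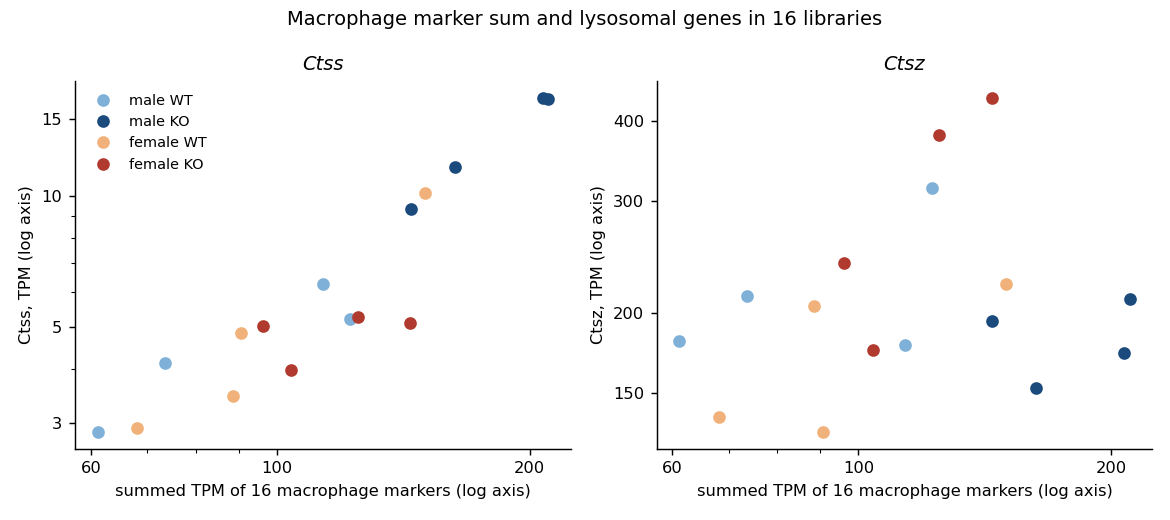
*Ctss* (left) and *Ctsz* (right) in TPM against the summed TPM of 16 macrophage markers, both on log axes, with 1 point per library. *Ctss* follows the sum from 61.1 TPM (male WT mouse 1) to 211 TPM (male KO mouse 4), with r = 0.92 on the log2 scale, and *Ctsz* has r = 0.23.

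Among the other proteases, *Ctsb* and *Ctsd* were higher in male KO mice by 1.36-fold and 1.23-fold. Cathepsin B and cathepsin D are the most abundant proteases of the list and are made in most cells. *Ctsb* was at 334, 337, 411 and 507 TPM in male WT mice and 410, 606, 577 and 568 TPM in male KO mice (log2 fold change 0.45, SE 0.18, adjusted p = 0.236 in limma). *Ctsd* was at 428, 547, 570 and 607 TPM in male WT mice and 550, 729, 666 and 693 TPM in male KO mice (log2 fold change 0.30, SE 0.14, adjusted p = 0.282). In both, 3 KO mice lay above all WT mice and KO mouse 1 lay among them. *Tpp1*, a tripeptidyl peptidase, had a log2 fold change of 0.32 (SE 0.13, adjusted p = 0.246 in limma). *Ctsa*, *Ctsf* and *Ctsl* had values of 0.20, 0.05 and 0.05, all with overlapping groups.

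Glycosidases remove sugars from glycoproteins, glycolipids and glycosaminoglycans. All 8 tested in males had positive log2 fold changes, from 0.03 to 0.33, and their median of 0.17 was close to that of all genes. *Man2b1*, the lysosomal alpha-mannosidase, was at 10.4 ± 1.82 TPM (mean ± SD, n = 4) in WT and 13.1 ± 1.37 TPM in KO males, and *Gusb*, the beta-glucuronidase, at 12.6 ± 1.5 and 15.5 ± 1.40 TPM. Both had overlapping groups (adjusted p = 0.249 and 0.233 in limma). *Gla* could not be tested. *Glb1*, *Hexa*, *Manba*, *Neu1*, *Naglu* and *Gaa* had log2 fold changes of 0.03 to 0.19.

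The genes of lipid handling were close to the general shift or below it in males, with a median of 0.10 for 6 genes. *Psap* was at 523, 628, 580 and 630 TPM in WT and 634, 670, 648 and 674 TPM in KO males, so the groups did not overlap, by a small margin (log2 fold change 0.16, SE 0.09, adjusted p = 0.373). After median-of-ratios scaling its log2 fold change was -0.01. *Lipa* encodes lysosomal acid lipase, which hydrolyses cholesteryl esters and triglycerides, and was at 41.7, 44.9, 52.6 and 45.1 TPM in WT and 41.7, 60.2, 55.0 and 57.5 TPM in KO males (log2 fold change 0.21, SE 0.14, adjusted p = 0.411). *Npc1* and *Npc2*, whose products export cholesterol, were at -0.02 and 0.04, and *Ppt1* and *Asah1*, a thioesterase and the acid ceramidase, at 0.06 and 0.13.

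Membrane proteins showed one separation in males. *Mcoln1* encodes the calcium channel of the lysosomal membrane and was at 16.8, 22.6, 20.04 and 21.5 TPM in WT and 25.2, 23.01, 24.6 and 23.1 TPM in KO males (log2 fold change 0.25, SE 0.11, adjusted p = 0.261). All KO mice were above all WT mice in TPM, and the log2 fold change was 0.09 after median-of-ratios scaling. *Lamp1* was at 188, 219, 240 and 224 TPM in WT and 221, 258, 241 and 250 TPM in KO males (log2 fold change 0.16, SE 0.11). *Lamp2*, the other major LAMP glycoprotein, was at 33.2, 33.0, 34.3 and 36.8 TPM in WT and 30.9, 36.1, 38.1 and 38.2 TPM in KO males (log2 fold change 0.06, SE 0.10). Their groups overlapped, as did those of *Cd63* (0.28), a tetraspanin, and *Scarb2* (-0.01), the receptor that carries glucocerebrosidase. *Atp6v1a*, the catalytic subunit of the V-ATPase, had 0.23, and *Grn*, the precursor of granulins, 0.26.

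The TFEB family was described at the RNA level only. *Tfe3* was at 10.1, 13, 11.7 and 14.04 TPM in male WT mice and 14.4, 15.6, 16.3 and 16.2 TPM in male KO mice (log2 fold change 0.35, SE 0.11, adjusted p = 0.205 in limma). The groups did not overlap, and after median-of-ratios scaling the value was 0.19. *Tfeb* was at 6.92, 10.5, 8.35 and 9.92 TPM in WT and 12, 11, 12.8 and 9.08 TPM in KO males (0.32, SE 0.15), with KO mouse 4 inside the WT range. *Mitf* was at 0.751, 0.801, 0.893 and 1.20 TPM in WT and 1.29, 0.874, 1.22 and 1.14 TPM in KO males (0.21, SE 0.18), also with overlap. In females *Tfe3* was at 13.4, 10.0, 12.1 and 13.7 TPM in WT and 13.8, 13.2, 11.2 and 15.1 TPM in KO mice, and *Tfeb* at 9.03, 5.82, 8.42 and 9.72 TPM in WT and 11.2, 8.54, 8.41 and 7.14 TPM in KO mice. These groups overlapped, with log2 fold changes of 0.11 (SE 0.14) and 0.10 (SE 0.19). *Mitf* was below the level for testing in females, at 1.18, 1.09, 0.843 and 0.983 TPM in WT and 0.860, 0.717, 1.12 and 0.792 TPM in KO mice.

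In females the pattern differed in its leading genes. *Ctsz*, *Cd63* and *Grn* had the largest positive values, and *Ctsb* and *Atp6v1a* the largest negative ones. No member passed the adjusted threshold, and 0% of all 12141 genes tested did so in limma. At an unadjusted p under 0.05, 6 of the 34 members tested were higher and 0 lower, against 11.6% of all genes higher and 5.46% lower. For 0 of the 34 did KO and WT values fail to overlap, against 4.9% of all genes with KO higher and 3.19% with KO lower. Of the 34, 26 had a positive log2 fold change, where 62.7% of all genes did, and their median of 0.09 was near the 0.10 of all genes. With mitochondrial transcripts left out, 12 of 35 members were positive and 23 negative (median -0.07, and -0.04 for all genes), and at an unadjusted p under 0.05 3 were higher and 4 lower, against 7.5% and 9.9% of all genes in that setting. After median-of-ratios scaling 17 of 34 were positive, with 6 higher and 4 lower at that p, against 10.7% and 9.38% of all genes. Within the prefix 8b (1 KO and 3 WT females) the members' median was 0.05, and within the prefix 10 (1 KO and 1 WT) it was 0.03, against 0.03 and 0.00 for all genes.

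*Ctsz* was at 206, 130, 222 and 138 TPM in female WT mice and 435, 240, 176 and 380 TPM in female KO mice (log2 fold change 0.77, SE 0.31, adjusted p = 0.269 in limma). *Cd63* was at 26.4, 18.3, 23.6 and 18.2 TPM in WT and 43.5, 25.7, 26.4 and 46.1 TPM in KO females (0.67, SE 0.23, adjusted p = 0.240). *Grn* was at 47.4, 34.2, 41.8 and 48.8 TPM in WT and 82.9, 54.6, 48.1 and 64.1 TPM in KO females (0.51, SE 0.20, adjusted p = 0.256). In all 3 genes KO mice 1 and 4 were high and KO mice 2 and 3 lay in or near the WT range. Without KO mice 1 and 4, a choice made after the values were seen, the log2 fold changes were 0.28 for *Ctsz*, 0.28 for *Cd63* and 0.26 for *Grn*, and 0 members had an unadjusted p under 0.05, against 2.05% of all genes higher and 1.76% lower. The other members with an unadjusted p under 0.05 in females were *Ctsa*, *Gaa* and *Neu1*, a protective protease, the acid alpha-glucosidase and a sialidase, with 0.40, 0.36 and 0.46.

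The macrophage-rich proteases did not separate in females. *Ctss* was at 3.46, 4.84, 10.2 and 2.92 TPM in WT and 5.10, 5.01, 3.97 and 5.25 TPM in KO females (log2 fold change 0.01, SE 0.32, adjusted p = 0.990). WT mouse 3 was far above the other WT mice, and without it the value was 0.35 (adjusted p = 0.418). *Ctsk* was at 1.75, 1.53, 3.11 and 1.98 TPM in WT and 3.81, 1.65, 2.44 and 1.82 TPM in KO females (0.16, SE 0.26). *Ctsh* was at 5.35, 5.59, 10.2 and 5.71 TPM in WT and 9.62, 6.10, 8.62 and 8.46 TPM in KO females (0.30, SE 0.22). WT mouse 3 was the highest female library for *Ctsh*, and also for the macrophage marker sum, at 150 TPM against 68.1 to 90.7 in the other WT and 96.1 to 144 in the KO females. *Ctsc* was at 3.10, 3.67, 4.47 and 3.07 TPM in WT and 4.30, 2.70, 4.08 and 4.12 TPM in KO females (0.07, SE 0.17), and *Atp6v0d2* at 0.115, 0.0954, 0.120 and 0.0259 TPM in WT and 0.106, 0, 0.156 and 0.0466 TPM in KO females. The median of the 5 tested macrophage-rich members in females was 0.16, against 0.07 for the 27 others. Of the 14 macrophage markers tested in females, 12 had a positive log2 fold change, where 62.7% of all genes did. Their median was 0.30, against 0.10 for all genes. At an unadjusted p under 0.05, 1 was higher and 0 lower, against 11.6% and 5.46% of all genes. Of the defining markers, *Cd68* had a log2 fold change of 0.35 (adjusted p = 0.284), *Csf1r* 0.01 and *Adgre1* -0.16. Endothelial markers summed to 188 to 282 TPM in WT and 305 to 611 TPM in KO females, without overlap and with KO mouse 1 highest. Their part was not tested.

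The remaining abundant members overlapped in females. *Ctsb* was at 478, 436, 466 and 365 TPM in WT and 254, 421, 376 and 296 TPM in KO females (log2 fold change -0.39, SE 0.19, adjusted p = 0.321 in limma). *Ctsd* was at 603, 491, 557 and 466 TPM in WT and 465, 525, 446 and 444 TPM in KO females (-0.17, SE 0.14). *Lipa* was at 40.7, 40.6, 49.6 and 35.4 TPM in WT and 32.5, 43.5, 31.9 and 30.1 TPM in KO females (-0.27, SE 0.16). In *Lipa* KO mouse 2 stood within the WT values while the other KO mice were below all of them. *Lamp1* was at 219, 196, 237 and 179 TPM in WT and 195, 233, 179 and 214 TPM in KO females (-0.01, SE 0.15), and *Lamp2* at 41.1, 37.7, 41.0 and 27.1 TPM in WT and 31.6, 37.4, 30.8 and 42.2 TPM in KO females (-0.04, SE 0.18). *Psap* was at 634, 484, 652 and 481 TPM in WT and 614, 690, 475 and 635 TPM in KO females, and *Mcoln1* at 24.5, 17.1, 17.6 and 15.2 TPM in WT and 26.7, 17.7, 18 and 27.2 TPM in KO females, both with overlap.

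The *Ctsb* value is the sum of a coding and a non-coding transcript. Ctsb-202, annotated as retaining an intron, carried 31.9 to 58.8% of the *Ctsb* TPM. In females Ctsb-202 was at 256, 243, 269 and 190 TPM in WT and 80.9, 232, 194 and 127 TPM in KO mice, with KO mice 1 and 4 lowest. The coding Ctsb-201 was at 221, 193, 197 and 174 TPM in WT and 173, 188, 181 and 168 TPM in KO females. In males Ctsb-201 was at 155, 183, 180 and 223 TPM in WT and 190, 260, 237 and 235 TPM in KO mice. With retained-intron transcripts left out, an alternative chosen after the values were seen, the log2 fold change of *Ctsb* was -0.14 in females and 0.32 in males. The same step moved *Npc1* in females from 0.08 to -0.67 (SE 0.21, adjusted p = 0.221 in limma), as retained-intron transcripts took 38.9 to 78.4% of its TPM, most in female KO mouse 1.

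**Figure D5:**
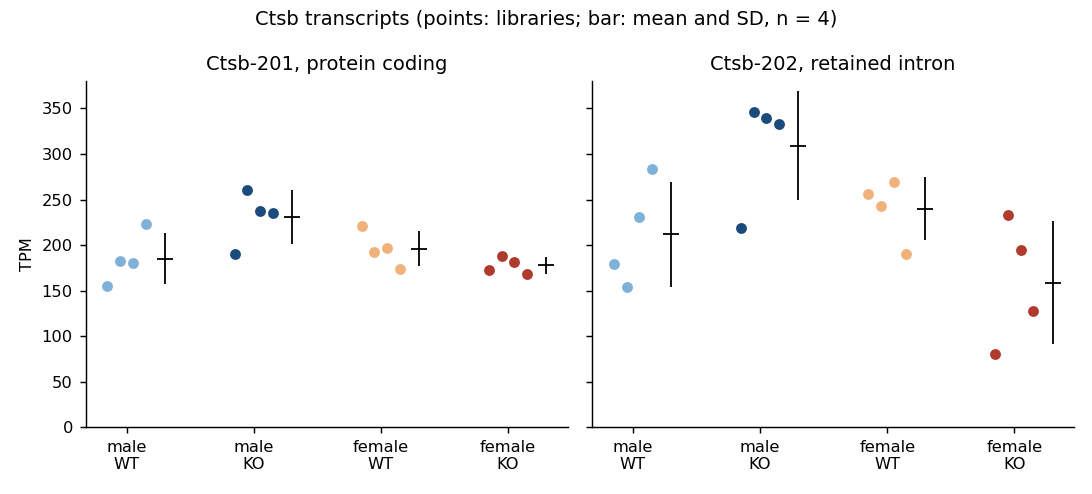
TPM of the coding transcript Ctsb-201 (left) and of Ctsb-202, annotated as a retained intron (right), in each library (points) with the mean and SD of each group (bars, n = 4). Female KO mice 1 and 4 have the lowest Ctsb-202 (80.9 and 127 TPM), while Ctsb-201 of female KO mice spans 168 to 188 TPM.

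The difference of the KO effect between males and females was tested directly, as an interaction over all 16 libraries. No member passed the adjusted threshold, as was the case for 0% of the 12210 genes tested in limma. At an unadjusted p under 0.05, 5 of 34 members had a larger value in males and 1 a smaller one, against 11.7% and 2.51% of all genes. The 5 were *Ctss* (difference 1.46, SE 0.43, adjusted p = 0.216), *Ctsb* (0.84, SE 0.26, adjusted p = 0.218), *Ctsd* (0.46), *Lipa* (0.48) and *Atp6v1a* (0.55). The 1 was *Ctsz* (-1.02, SE 0.39, adjusted p = 0.272). Without female KO mice 1 and 4 the difference was 0.57 for *Ctsb* and -0.52 for *Ctsz*, and it was 1.56 for *Ctss*. For *Ctsb* it was 0.46 with retained-intron transcripts left out. For 21 of 34 members the value was larger in males, as it was for 57.1% of all genes. Of the 34 members tested in both sexes, 23 had positive values in both, 8 were positive in males and negative in females, 3 the reverse, and 0 were negative in both. Over all genes tested, 79.9% were positive in males and 62.7% in females, and the share positive in both was not computed. After median-of-ratios scaling the interaction was positive for 17 of 34 members, with 3 larger and 4 smaller in males at that p, against 9.32% and 9.26% of all genes.

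Averaged over both sexes, 32 of 34 members had a positive log2 fold change, as did 75.5% of all genes, and 12 of 34 members were higher and 0 lower at an unadjusted p under 0.05, against 21.4% and 2.58% of all genes. The adjusted threshold was passed by 2.95% of all genes and by 0 of 34 members. The smallest adjusted p in limma were those of *Ctss* (0.0679, mean log2 fold change 0.74), *Grn* (0.0748, 0.39) and *Ctsh* (0.0834, 0.45). Without female WT mouse 3 *Ctss* and *Ctsh* passed, with adjusted p of 0.0270 and 0.0428 in limma. *Cd63* and *Ctsh* passed without male WT mouse 2 (0.0444 and 0.0310), and *Grn* and *Tpp1* without female KO mouse 3 (0.0378 and 0.0494). Over all genes, 179 of 12213 passed as higher and 22 as lower without female WT mouse 3. These counts were 981 and 74 of 12189 without male WT mouse 2, and 803 and 59 of 12200 without female KO mouse 3. Among WT mice 0 of 34 members had an unadjusted p under 0.05 between males and females in limma, against 2.18% of all genes higher and 1.25% lower in males, and 0 passed the adjusted threshold, which 0.0664% of all genes did. The members' log2 differences, male minus female, ranged from -0.15 to 0.35 and were positive for 18 of 34, where 62.3% of all genes were positive. For 0 members did the sexes fail to overlap, against 1.2% of all genes with males higher and 0.722% with males lower. The prefixes of the library names do not cross the sexes among WT mice, so both cannot be told apart there.

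A further 85 genes of the lysosome outside the chosen list were read in the same way. In males 15 of 83 tested were higher and 0 lower at an unadjusted p under 0.05, near the 17.7% and 1.07% of all genes, with a median of 0.15. *Laptm5*, a lysosomal membrane protein of blood cells, was at 3.48 ± 0.881 TPM in WT and 7.99 ± 1.42 TPM in KO males (log2 fold change 1.10, SE 0.18, adjusted p = 0.123), without overlap. Averaged over both sexes its log2 fold change was 0.67 (adjusted p = 0.0328 in limma), and it was the 1 of 83 to pass, where 2.95% of all genes did. Its value was larger in males than in females by 0.87 (SE 0.30, adjusted p = 0.235 in limma), so the mean is not a rise of equal size in both. In females 6 of 84 were higher and 8 lower at that p, against 11.6% and 5.46% of all genes, with a median of 0.12. *Dpp7*, a dipeptidyl peptidase, was at 7.12 ± 1.05 TPM in WT and 14 ± 4.37 TPM in KO females (0.90, SE 0.21, adjusted p = 0.231). *Mtor*, the kinase that is recruited to lysosomes by the Rag GTPases, had values of 0.46 in males and -0.58 in females (interaction 1.04, SE 0.27, adjusted p = 0.215), and *Abca2*, a lysosomal transporter, 0.60 and -0.65 (interaction 1.25, SE 0.34, adjusted p = 0.215). Both have long transcripts, of 5752 and 5466 bases, and values moved with length, as described below.

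By group, the 25 further hydrolases tested had median log2 fold changes of 0.08 in males and 0.08 in females, with 3 higher and 0 lower in males and 3 higher and 2 lower in females at an unadjusted p under 0.05. These and the following counts stand against 17.7% of all genes higher and 1.07% lower in males, and 11.6% and 5.46% in females. The 20 further membrane proteins had medians of 0.18 and 0.10, with 6 higher in males and 1 higher and 2 lower in females. The 17 further V-ATPase genes had 0.15 and 0.28, with 4 higher in males, *Atp6v0a1* (0.37) having the smallest p, and 1 higher in females, *Atp6v0b* (0.65). The 7 genes that sort hydrolases to the lysosome had 0.13 and -0.06, with 0 in males and 1 higher and 2 lower in females, among them *Gnptab* (-0.68), which makes the mannose 6-phosphate tag. The list of Rag and Ragulator genes, which anchor nutrient sensing at the lysosome, also held *Mtor*, *Rptor*, *Rheb*, *Flcn*, *Fnip1* and *Fnip2*. This whole list had 0.18 over 14 genes and 0.15 over 15, with 2 higher in males and 2 lower in females. Its lowest female value, -0.58, was that of *Mtor*.

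Transcript length moved with the female values. Over the 34 members tested in females, Pearson's r between log2 length and log2 fold change was -0.47, and over the 84 further lysosomal genes it was -0.63, where genes share libraries and are not independent. In males these values were -0.30 (35 members) and 0.14 (83 genes), and over all genes tested r was -0.09 in females and 0.09 in males. The 20 further lysosomal genes of at most 1500 bases had a median of 0.28 in females, and the 18 of at least 4000 bases -0.19. Over all genes tested in females these medians were 0.20 and -0.09. The direction of the split was thus shared with all genes, while r was further from 0 in the lysosomal genes. Per library, the median deviation of all long genes minus that of all short genes was -0.24, -0.09, -0.07 and -0.11 in female KO mice and -0.01, 0.15, 0.07 and 0.42 in female WT mice. All female KO libraries were thus below all female WT libraries in this measure, while males ranged from -0.23 to 0.10 and overlapped. For the interaction, r with length was 0.58 over 83 further lysosomal genes, 0.08 over 34 members and 0.14 over all genes. Its medians were -0.21 for the short and 0.33 for the long further lysosomal genes, and -0.08 and 0.20 over all genes. *Mtor*, *Abca2* and *Gnptab* (4754 bases) are long and *Atp6v0b* (865 bases) is short. The part of length in their values was not tested. When a smooth trend on length was removed from each library, an alternative chosen after the values were seen, the female values were 0.71 for *Ctsz*, 0.57 for *Cd63*, 0.48 for *Grn* and -0.38 for *Ctsb*, and that of *Ctss* in males was 1.5.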

How the data were processed

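BAT of 16 mice, 4 for each sex and genotype, was sequenced from stranded mRNA libraries. The authors quantified reads with kallisto (version 0.46.2 and build GRCm39 per the submitters' processing notes) and deposited transcript-level TPM, scaled to 1000000 per library. The annotation release and the strand setting of the counting are not given in the sources used here. TPM hold no read counts, so depth is unknown, no counting interval is given, and precision rests on the spread between mice. The study's DESeq2 test needs counts and was not run. Samples were grouped by sex, genotype and replicate from their labels. All 16 columns were mapped, and 0 were left out.

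Of 137438 transcripts, 135051 were found by identifier, version ignored, in GENCODE mouse release 21, and their TPM were added up per gene symbol. Values were transformed to log2(TPM + 0.5), which understates changes of low genes. The test was limma on genes whose mean reached 1 TPM in the libraries compared (3.58.1 in R 4.3.3; trended eBayes), with Benjamini-Hochberg adjustment over all genes and a threshold of 0.05. Single values were compared with exact two-sided permutation tests. Lists are described by counts and medians, without tests. The procedure was tested on simulated data. Exons of 11 members overlap those of other genes in that release, 9 of them on the opposite strand (*Ctsa*, *Ctsb*, *Ctsl*, *Ctsz*, *Grn*, *Hexa*, *Lamp1*, *Npc1*, *Ppt1*), so their reads may be shared.

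Values per mouse are given for members that passed the threshold, whose groups did not overlap, or that were macrophage-rich, of the TFEB family, or *Lamp1*, *Lamp2*, *Ctsb*, *Ctsd* or *Lipa*. Of the further lysosomal lists, single genes among those with the smallest p are given by group mean and SD or by log2 fold change. *Cd63*, *Grn* and the transcripts of *Ctsb*, *Tpp1* and *Ctsh* were added after their values were seen. Members and lists were chosen with earlier results of these data known. Other settings tried were a pseudocount of 1 or 0.1, a TPM minimum of 5 or none, median-of-ratios scaling, omission of mitochondrial transcripts, eBayes without a trend, a block for the replicate number, a covariate for the library prefix, 1 fit over all libraries, and omission of each library. Omission of female KO mice 1 and 4, omission of retained-intron transcripts and removal of a length trend were chosen after seeing the data.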

Additional observations from a re-analysis of the deposited data

Results flagged for a closer look

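In 4 of the groups of 4 mice a member's highest or lowest TPM stood apart from the other 3 values by more than Dixon's 95% critical value. Chance flags about 1 in 20 groups, and 138 groups were examined. *Ctsh* was at 10.2 TPM in female WT mouse 3, where the other female WT mice lay between 5.35 and 5.71. *Ctsc* was at 2.7 TPM in female KO mouse 2, where the others lay between 4.08 and 4.3. *Ctsl* was at 73.2 TPM in male KO mouse 1, where the others lay between 84.99 and 87.3. *Ctsa* was at 43.3 TPM in male KO mouse 2, where the others lay between 39.7 and 40.2.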

How the results depend on the processing

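In all 5 comparisons 0 members passed the adjusted threshold under every alternative, except that in the mean over both sexes 0 to 2 passed when 1 library was left out. Over all genes, 19 to 981 passed as higher and 12 to 93 as lower in those fits of the mean. The members' median log2 fold change in males was 0.04 after median-of-ratios scaling. The difference between macrophage-rich and other medians was 0.14 in males with the broader set of 13 and 0.48 in females with the prefix as a covariate; it was 0.38 to 0.56 in males and -0.05 to 0.27 in females when 1 library was left out. Leaving out 1 library also gave medians of 0.16 to 0.24 in males, 0.03 to 0.15 in females, 0.03 to 0.16 for the interaction, 0.11 to 0.19 for the mean and -0.05 to 0.10 between WT males and females. The causes were not tested. With the replicate number as a block, 11 male and 4 female members were higher at an unadjusted p under 0.05 (20.8% and 12.1% of all genes), and 0 passed the adjusted threshold. Counts at an unadjusted p under 0.05 depended on the setting, as did those of all genes. The 9 higher members in males became 5 with the prefix covariate (7.57% of all genes) and 4 to 11 without 1 library (9.37 to 23.6%). The 6 in females became 1 higher and 1 lower with the covariate (5.26% and 4.71%), and 0 to 8 higher and 0 to 3 lower without 1 library (5.42 to 17% and 3.13 to 8.2%). In males the count was 4 without KO mouse 2, KO mouse 3 or WT mouse 1, and 5 without WT mouse 3. In females the count was 0 without KO mouse 1 or KO mouse 4, 1 without WT mouse 2 and 2 without WT mouse 4. The 5 of the interaction became 9 with mitochondrial transcripts left out (12.7% of all genes), 3 with the length trend removed (11%), 3 without female KO mice 1 and 4 (5.53%), and 2 to 6 without 1 library (8.17 to 15%). The 12 of the mean became 7 under either rescaling (11.6% in both), 4 with the covariate (10.5%) and 5 without female KO mice 1 and 4 (12.2%). The deviations of genes from their group means correlated between same-numbered KO and WT mice at -0.0855 to 0.350 in males and -0.109 to 0.146 in females. With so few mice these values cannot show whether numbers mark pairs. The log2 difference of *Gdf15* was -1.38 in males, -2.26 with a pseudocount of 0.1, and -1.71 to -0.94 without 1 mouse (exact permutation p = 0.0571 without any 1 KO mouse and 0.0286 without any 1 WT mouse). In females it was -0.43, -1.32 with a pseudocount of 0.1, and -0.54 to -0.36 without 1 mouse, with an exact permutation p of 0.0286 without WT mouse 1. The prefix covariate could not be fitted between WT males and females. Among the values of single members under these settings, 41 moved by at least 1 SD between mice and 2309 by less.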
